A study of Mus musculus with 23 samples.

Results

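The genes described here are 10 genes of liver macrophages and of macrophages in general: *Clec4f*, *Timd4*, *Vsig4*, *Marco*, *Cd5l*, *Cd163*, *Mrc1*, *Adgre1*, *Lyz2*, and *Trem2*. They were picked out by gene symbol, as known macrophage genes, and all 10 were found among the 48897 gene entries of the deposited table. The first 6 are counted here as resident, or Kupffer cell, genes, and the other 4 as shared genes, which macrophages newly made from blood monocytes also express. Poly(A) RNA was sequenced from 23 whole-tissue libraries of male BALB/c mice aged 4 to 6 weeks at the start. In 9 mice, cells of the mouse colon carcinoma line CT26 were injected into the wall of the cecum, and each mouse gave a liver, which the labels call pre-metastatic, and its primary tumor 3 weeks later. The livers of 5 sham-operated mice that received medium without cells served as control liver. Each library of a group came from a different mouse, so the errors below are between mice, and the tumors all came from 1 cell line at 1 site.

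Kupffer cells are the macrophages that line the liver sinusoids, where they take up bacteria, dying cells, and old red cells from portal blood. Most are seeded before birth and renew themselves in place, and monocytes that enter an empty niche acquire the Kupffer cell program only gradually. Macrophages recruited to injured or tumor tissue instead keep monocyte genes or switch on a lipid-handling program that includes *Trem2*. The comparisons therefore asked whether the resident genes and the genes of recruited macrophages moved together or apart between control liver, pre-metastatic liver, and primary tumor.

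Total counts were 44587556 to 79773163 per liver and 47005276 to 70884436 per tumor. Levels are given in RPKM, the count scaled to gene length and to library depth, as the authors deposited it. Fold changes come from edgeR on the raw counts, with TMM scaling and Benjamini-Hochberg adjusted *p* values over all genes tested, and a gene is called where the adjusted *p* is under 0.05. Without TMM scaling the typical gene appeared higher in tumor: the median of all genes was 0.65 higher than in pre-metastatic liver on the log2(RPKM + 1) scale and 0.09 higher in edgeR. RPKM therefore sets tumors higher against livers than the fold changes do. In all livers *Alb*, the serum albumin gene of hepatocytes, was at 15822 RPKM or more. The labels give no batch. The livers were split by the sign of an index made from 6 circadian clock genes. Below the cut was an early set (4 control and 5 pre-metastatic livers). Above it was a late set (M1, M2, M10, and M12, with C7 as its sole control). M7, of the early set, lay close to the cut at -0.102, and C7 was at 0.981. Control mouse C1 was the lowest control liver for 9 of the 10 genes.

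In pre-metastatic liver, 7 of the 10 genes were higher than in control liver and none was lower (edgeR, adjusted *p* under 0.05), and they included both resident and shared genes. Of the 16987 genes tested in that comparison, 17.7% were called higher and 13.3% lower, or 3009 and 2261 genes; limma on log2(RPKM + 1) gave 1988 higher and 3068 lower. *Lyz2*, *Timd4*, and *Cd5l* rose by 3.1 to 3.7 fold and did not overlap between the groups, as was true of 4.85% of all genes tested (6.09% lay wholly below control liver). *Clec4f*, *Vsig4*, *Adgre1*, and *Trem2* rose by 2.0 to 2.4 fold. *Cd163*, *Marco*, and *Mrc1* did not pass the test. Without the livers of C1, M1, and M10, left out after their levels had been seen, 6 of the 10 genes were called. *Adgre1* was lost (edgeR, log2 fold change 0.78, adjusted *p* = 0.0787). Of all 17007 genes tested without these livers, 2230 were called higher and 1451 lower. In whole-tissue RNA, more cells of a type and more RNA per cell cannot be told apart.

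**Figure D1:**
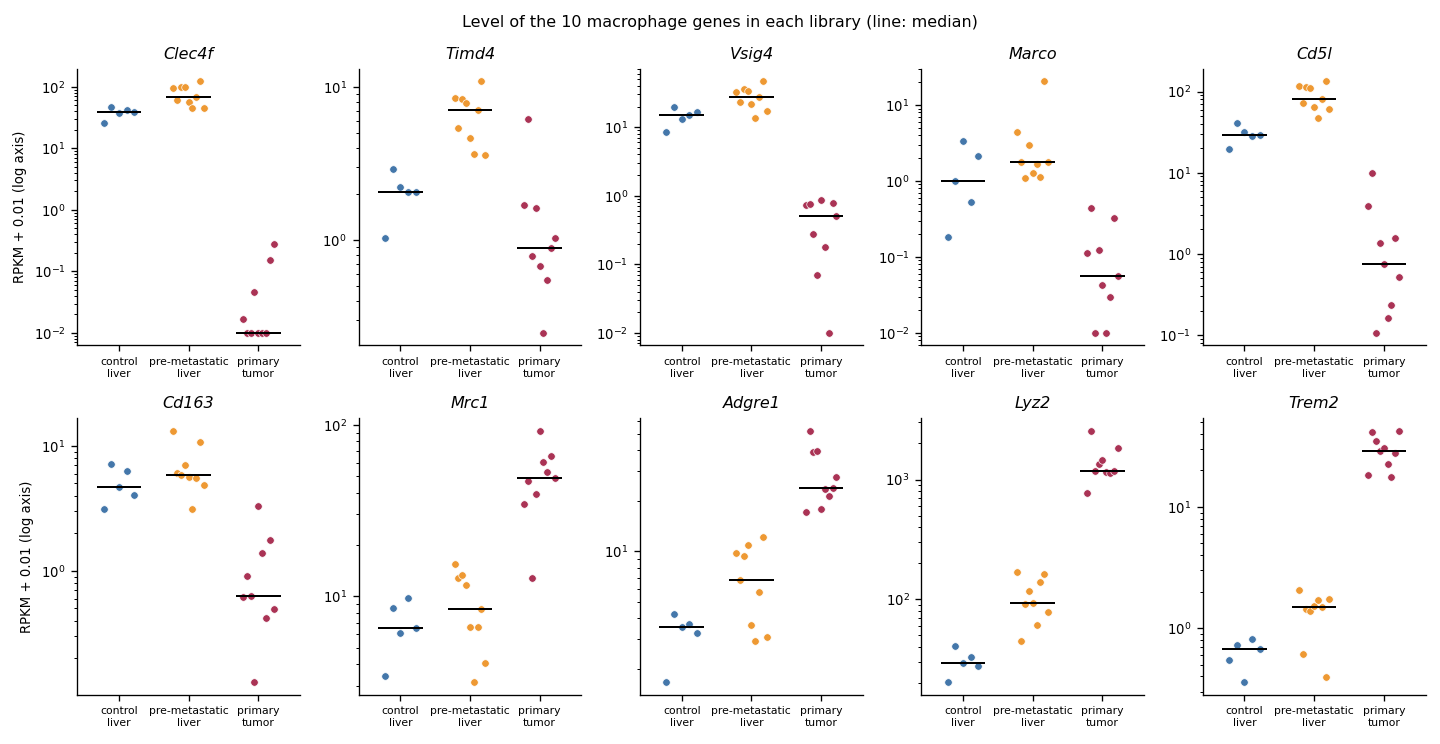
Level of each gene in each library, as RPKM plus 0.01 on a log axis, with 1 point per library and a line at the group median (5 control livers, 9 pre-metastatic livers, 9 primary tumors). The 6 resident genes (*Clec4f* to *Cd163*) had their lowest median in the tumors, and the 4 shared genes (*Mrc1* to *Trem2*) their highest.

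*Clec4f* (chr6:83644542-83656116, minus strand, in mm10, the build of every position given) encodes a C-type lectin that in mice is made by Kupffer cells and is their classical marker. In control mice C1, C4, C5, C6, and C7 it was at 25.3, 47.7, 37.6, 42.5, and 38.4 RPKM. Pre-metastatic livers ranged from 45.4 RPKM (M7) over a median of 67.8 to 122 RPKM (M10), and 7 of 9 lay above every control liver. The log2 fold change was 1.08 (SE 0.219, adjusted *p* = 0.00189).

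*Vsig4* (chrX:96247203-96293438, minus strand), the complement receptor CRIg that lets Kupffer cells catch opsonized bacteria, was at 8.45, 19.6, 13.3, 14.8, and 16.4 RPKM in the same control mice. Its range in pre-metastatic liver was 13.8 (M7) to 46.5 RPKM (M10), with a median of 27.8. It rose by 1.02 on the log2 scale (SE 0.239, adjusted *p* = 0.00483), with 7 of 9 livers above all controls.

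*Timd4* (chr11:46810786-46844333, plus strand), a receptor for phosphatidylserine on dying cells and a marker of long-lived resident macrophages, was at 1.02, 2.89, 2.21, 2.06, and 2.05 RPKM in control liver. All 9 pre-metastatic livers were higher, from 3.60 (M12) over a median of 6.99 to 10.8 RPKM (M10). Its log2 fold change of 1.77 (SE 0.269, adjusted *p* = 0.000271) was the largest among the resident genes that passed the test.

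*Cd5l* (chr3:87357881-87371074, plus strand) encodes AIM, a protein that macrophages secrete and that binds lipids and cell debris. Control livers held 19.8, 40.8, 31.6, 28.2, and 29.2 RPKM, and pre-metastatic livers 46.8 (M7) to 133 RPKM (M10) with a median of 80.2, again without overlap. The log2 fold change was 1.64 (SE 0.225, adjusted *p* = 0.000134).

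*Cd163* (chr6:124304630-124330529, plus strand), the receptor for hemoglobin bound to haptoglobin, was at 3.11, 7.19, 4.66, 6.23, and 4.0 RPKM in control liver. In pre-metastatic liver it ranged from 3.14 (M7) over 5.88 to 13.2 RPKM (M1), and only mice M1 and M10 exceeded every control. The log2 difference of 0.54 (95% interval -0.02 to 1.09) did not pass the test (adjusted *p* = 0.164), and among the early-set livers it was 0.10.

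*Marco* (chr1:120474538-120505084, minus strand), a scavenger receptor for bacteria and particles, spread widely within each group. Control livers were at 0.175, 0.990, 3.40, 0.513, and 2.10 RPKM. Pre-metastatic livers ranged from 1.07 (M4) over 1.78 to 20.5 RPKM in M10, and the next highest, M1, was at 4.35 RPKM. The log2 difference of 1.58 (95% interval -0.01 to 3.18, adjusted *p* = 0.154) fell to 0.57 without the liver of M10.

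Among the shared genes, *Adgre1* (chr17:57358651-57483529, plus strand) encodes F4/80, the surface marker by which mouse macrophages are usually recognised. It was at 1.66, 4.23, 3.55, 3.69, and 3.24 RPKM in control liver and at 2.92 (M7) to 12.2 RPKM (M10), median 6.76, in pre-metastatic liver. Its log2 fold change was 1.19 (SE 0.325, adjusted *p* = 0.0120), but 3 pre-metastatic livers (M6, M7, and M12) lay within the control range. The call was lost with limma on log2(RPKM + 1) (adjusted *p* = 0.0568), in the exact Wilcoxon test (adjusted *p* = 0.218, where 11.5% of all genes were called higher and 15.9% lower), and among the early-set livers alone (log2 fold change 1.02, adjusted *p* = 0.0559).

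*Lyz2* (chr10:117277541-117282272, minus strand) encodes lysozyme M, made by macrophages, monocytes, and neutrophils alike. Control livers held 20.4, 41.0, 29.2, 33.0, and 27.8 RPKM, and all 9 pre-metastatic livers held more, from 45.2 (M2) over 93.1 to 169.9 RPKM (M1). The log2 fold change was 1.90 (SE 0.292, adjusted *p* = 0.000287), the largest of the 10 genes. Reads of *Lyz1*, its close paralog, could not be separated from it with certainty, but *Lyz1* was listed at no more than 0.710 RPKM in any liver. Markers of neutrophils moved with it: 7 of 10 tested were higher, none was lower, and *S100a8*, a calcium-binding protein of neutrophils and monocytes, was at 1.69 to 7.23 RPKM in control and 2.35 (M2) to 51.9 RPKM (M1) in pre-metastatic liver. The share of neutrophils in the rise of *Lyz2* was not tested.

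*Trem2* (chr17:48346401-48352276, plus strand), a receptor for lipids and lipoproteins, was the least expressed of the 10 in control liver, at 0.535, 0.720, 0.349, 0.803, and 0.667 RPKM. Pre-metastatic livers ranged from 0.389 in M10 and 0.607 in M2 to 2.04 RPKM in M1, with a median of 1.5, and the other 7 livers lay above all controls. The log2 fold change of 1.26 (SE 0.371, adjusted *p* = 0.0178) rested on 24 to 155 counts per liver. It was not called by the exact Wilcoxon test (adjusted *p* = 0.106) or without control mouse C5 (adjusted *p* = 0.0502).

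*Mrc1* (chr2:14229414-14332023, plus strand), the mannose receptor CD206, is made by macrophages and also by the endothelium of the liver sinusoids. It was at 3.43, 8.49, 6.06, 9.70, and 6.53 RPKM in control and at 3.14 (M7) to 15.5 RPKM (M1), median 8.46, in pre-metastatic liver. The log2 difference of 0.48 (95% interval -0.15 to 1.10, adjusted *p* = 0.281) did not pass the test. Of 9 sinusoid endothelial markers, 1 (*Stab2*) was called higher, none lower, and their summed level was 40.2 to 94.6 RPKM in control and 28.5 to 133 RPKM in pre-metastatic liver.

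**Figure D2:**
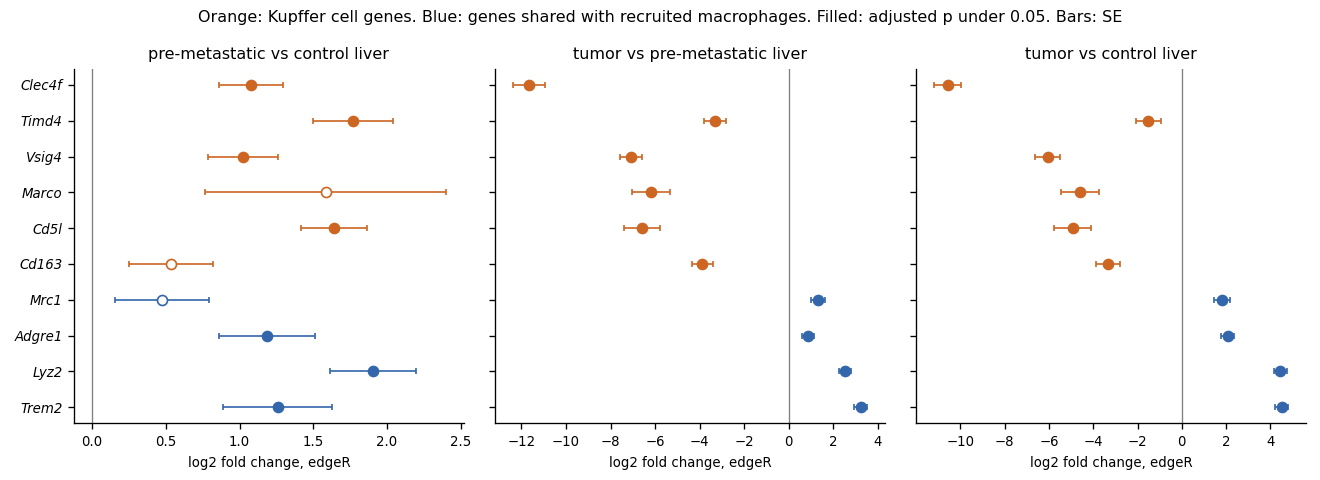
The log2 fold change of each gene by edgeR in the 3 comparisons, with bars for the standard error and filled points for an adjusted p under 0.05 (orange, resident genes; blue, shared genes). All 10 points lie above 0 for pre-metastatic against control liver, while in both tumor comparisons the 6 resident genes lie below 0 and the 4 shared genes above it.

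*Clec4f*, *Vsig4*, *Timd4*, and *Cd5l* rose and fell together from liver to liver. Across the 9 pre-metastatic livers, on log2(RPKM + 1), *Clec4f* correlated with *Vsig4* by a Pearson r of 0.973 and a Spearman rho of 1 (exact permutation *p* = 2.76e-06 and 5.51e-06, adjusted over 9 relations 2.48e-05 and 4.96e-05). With *Cd5l* r was 0.979 and rho 0.950, and with *Timd4* 0.977 and 0.933 (exact permutation, adjusted *p* at most 0.00169). *Adgre1* followed as closely, with r 0.967 and rho 0.933 (exact permutation, adjusted *p* = 0.000118 and 0.00169). Mice M10, M4, M5, and M1 had the highest levels of *Clec4f*, *Vsig4*, *Timd4*, and *Cd5l*, and M7 and M12 the lowest. Without M7 and M10, the mice farthest from the median of *Clec4f*, r stayed between 0.948 and 0.984 for these 4 genes. With ranks centered within the clock sets, rho was 0.936 to 1.

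The other genes followed *Clec4f* less closely. For *Cd163*, r was 0.779 and rho 0.767 (exact permutation, adjusted *p* = 0.0160 and 0.0385), falling to an r of 0.589 without M7 and M10. For *Mrc1*, r was 0.739 and rho 0.700 (adjusted *p* = 0.0410 and 0.0649, exact permutation). The call for *Cd163* was lost without M7 (exact adjusted *p* = 0.0938), and that for *Mrc1* without any 1 of M1, M4, M5, M6, M7, M8, or M12 (0.0557 to 0.111). *Lyz2* had an r of 0.684 and *Marco* of 0.619 (adjusted *p* = 0.0511 for both, exact permutation), with rho of 0.617 and 0.300, but *Lyz2* passed without M2 or M4 and *Marco* without M4 (exact adjusted *p* = 0.0489, 0.0491, and 0.00919). *Trem2* did not follow *Clec4f* (r of -0.367, rho of -0.583, exact permutation, adjusted *p* = 0.343 and 0.122). M10, highest for *Clec4f*, was lowest for *Trem2*.

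**Figure D3:**
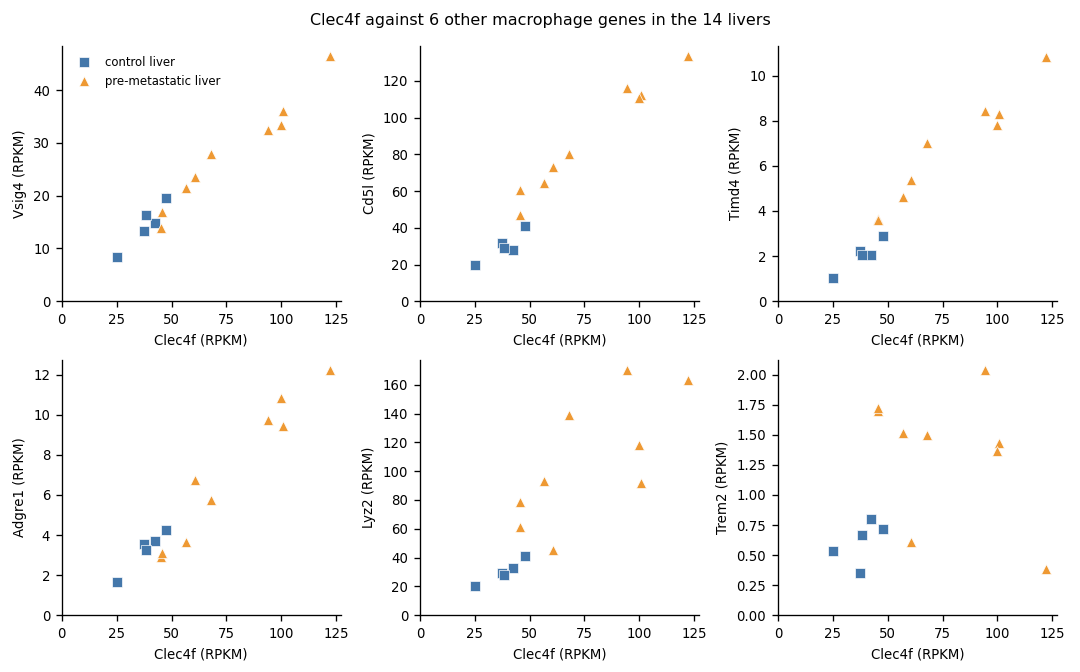
Level of 6 macrophage genes against that of *Clec4f* in the 14 livers, both in RPKM on linear axes, with 1 point per liver (squares, 5 control; triangles, 9 pre-metastatic). *Vsig4*, *Cd5l*, *Timd4*, and *Adgre1* rise with *Clec4f* among the pre-metastatic livers, *Lyz2* scatters, and *Trem2* does not rise with *Clec4f*. At *Clec4f* levels near that of control C4, *Cd5l* was higher in pre-metastatic M7 and M12 (46.8 and 60.7 against 40.8 RPKM). *Timd4* was also higher there, and *Vsig4* and *Adgre1* were lower.

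Over all 14 livers, with each gene taken as its deviation from the group mean in log2 CPM, the genes most like *Clec4f* among 16986 others were *Cd5l* (r = 0.957), *Vsig4* (0.957), *Csf1r* (0.950), *Timd4* (0.947), and *C1qb* (0.944). *Csf1r* encodes the receptor for the macrophage growth factor CSF1, and *C1qb* a chain of complement C1q. *Adgre1* came sixth, *Cd163* stood at rank 136, *Mrc1* at 274, *Lyz2* at 302, *Marco* at 959, and *Trem2* at 13879. *Lyz2* was most like *Ncf4* (0.926), *Spi1* (0.917), *Cyba* (0.913), *Ms4a6c* (0.896), and *Vasp* (0.895), among them 2 subunits of the phagocyte oxidase and the myeloid regulator PU.1, encoded by *Spi1*. The genes most like *Trem2* were *Lox* (0.889), *Cdh11* (0.884), *Zfp433* (0.864), *D430020J02Rik* (0.860), and *Cdh3* (0.860), all at means under 0.4 RPKM, and *Trem2* itself was at few counts. These values describe 14 libraries that share depth and tissue makeup, with no test.

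The promoter windows of the 4 resident genes that moved together, and of *Lyz2* for contrast, read as follows, from 250 bases before to 50 bases after the start site (RefSeq, GRCm38.p6, the mm10 assembly; each in the sense of its gene). Capitals mark the letters GAGGAA, the core of the PU.1 site, TGCTGA, the core of the MAF site, and TGGGAA, the RBPJ core, searched on both strands. PU.1 and MAF factors act throughout the macrophage lineage, and RBPJ carries Notch signals that start the Kupffer cell program in monocytes.
Clec4f, chr6:83656067-83656366, minus strand: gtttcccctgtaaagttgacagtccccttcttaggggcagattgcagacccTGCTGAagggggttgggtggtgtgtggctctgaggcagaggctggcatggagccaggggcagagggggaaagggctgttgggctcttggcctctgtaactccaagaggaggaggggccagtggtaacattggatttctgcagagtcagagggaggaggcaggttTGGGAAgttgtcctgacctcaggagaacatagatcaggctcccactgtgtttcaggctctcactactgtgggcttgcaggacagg
Vsig4, chrX:96293389-96293688, minus strand: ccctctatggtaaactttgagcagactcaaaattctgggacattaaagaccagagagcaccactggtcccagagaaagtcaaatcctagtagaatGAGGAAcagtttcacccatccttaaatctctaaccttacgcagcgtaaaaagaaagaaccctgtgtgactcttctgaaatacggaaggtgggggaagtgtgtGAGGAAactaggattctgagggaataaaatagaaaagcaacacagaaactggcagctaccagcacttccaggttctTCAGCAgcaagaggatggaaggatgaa
Timd4, chr11:46810549-46810848, plus strand: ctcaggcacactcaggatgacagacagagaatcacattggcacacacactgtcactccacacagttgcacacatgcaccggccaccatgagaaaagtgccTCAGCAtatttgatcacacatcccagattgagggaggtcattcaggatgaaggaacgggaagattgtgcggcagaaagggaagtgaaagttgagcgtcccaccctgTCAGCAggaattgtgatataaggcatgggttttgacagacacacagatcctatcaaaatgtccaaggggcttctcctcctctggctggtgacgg
Cd5l, chr3:87357631-87357930, plus strand: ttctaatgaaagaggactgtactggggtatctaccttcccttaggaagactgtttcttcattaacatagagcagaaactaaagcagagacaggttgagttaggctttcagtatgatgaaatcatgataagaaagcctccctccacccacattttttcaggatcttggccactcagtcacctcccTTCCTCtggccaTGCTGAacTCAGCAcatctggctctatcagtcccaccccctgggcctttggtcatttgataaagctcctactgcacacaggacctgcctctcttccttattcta
Lyz2, chr10:117282223-117282522, minus strand: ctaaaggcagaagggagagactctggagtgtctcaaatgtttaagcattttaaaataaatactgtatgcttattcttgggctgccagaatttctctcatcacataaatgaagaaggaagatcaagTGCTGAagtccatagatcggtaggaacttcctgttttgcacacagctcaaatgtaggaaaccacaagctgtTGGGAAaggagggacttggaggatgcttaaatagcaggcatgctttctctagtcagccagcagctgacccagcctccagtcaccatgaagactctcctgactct
The MAF letters occur in all 5 windows, once in *Clec4f*, *Vsig4*, and *Lyz2* and at 2 places in *Timd4* and *Cd5l*. The PU.1 letters occur in *Vsig4* (2 places) and *Cd5l* (1), and the RBPJ letters in *Clec4f* and *Lyz2*. No marked stretch overlaps another. Of the 9 of 10 genes with a window, 5 held the PU.1 letters, 5 the MAF letters, and 3 the RBPJ letters, against 28.3%, 19.5%, and 25.6% of all 32851 windows. A match of 6 letters is a description and not a site.

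Other genes of macrophages and their recruitment were then counted in lists of known markers. Of 18 further Kupffer cell genes, 17 were tested, of which 9 were higher in pre-metastatic liver, 2 lower, and 6 not called, with a median log2 fold change of 0.90 against 0.01 for all genes tested. The largest changes were those of *Folr2*, a folate receptor of resident macrophages, which rose from 1.82 ± 0.574 (SD, n = 5) to 8.43 ± 3.04 RPKM (n = 9; log2 fold change 2.28, adjusted *p* = 4.64e-05), of *Il18bp*, the decoy of IL-18 (4.21 ± 0.504 to 14.5 ± 3.16 RPKM; 1.88, adjusted *p* = 9.17e-06), and of *C6*, a complement component that hepatocytes also make (15.0 ± 7.88 to 50.9 ± 20.7 RPKM; 1.81, adjusted *p* = 0.00166). *Id3*, a regulator that Kupffer cells need and that other liver cells also express, was lower instead (105 ± 39.4 to 37.4 ± 29.4 RPKM; -1.47, adjusted *p* = 0.0125), as was *Nr1h3*, which encodes the nuclear receptor LXR alpha and is also active in hepatocytes (-0.24, adjusted *p* = 0.0357). *Paqr9*, among the most abundant of this list, was at 64.7 ± 20 and 89.9 ± 32.1 RPKM and was not called.

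Of 16 genes that all macrophages share, 13 were higher, 0 were lower, and 3 were not called, with a median of 1.2. *C1qa* and *C1qc*, the other chains of C1q, rose from 60.2 ± 11.8 to 106 ± 36.8 RPKM and from 42.1 ± 8.30 to 83.3 ± 30.0 RPKM (log2 fold change 0.89 and 1.06, adjusted *p* = 0.00549 and 0.00216). The largest rises were those of *Fcgr1*, the high-affinity IgG receptor (1.87, adjusted *p* = 5.15e-05), *Mpeg1*, the pore-forming perforin-2 (1.76, adjusted *p* = 1.43e-06), and *Aif1*, a cytoskeletal protein of activated macrophages (1.53, adjusted *p* = 0.000772). *Mpeg1* was at 23.3 ± 2.44 RPKM in control and 75.1 ± 16.8 RPKM in pre-metastatic liver, without overlap.

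Of 14 genes of blood monocytes and of macrophages just made from them, 12 were higher and 0 lower, with a median log2 fold change of 2.43, which was above the 1.33 of the 6 resident genes. No test compared these lists with each other. *Ccr2*, the chemokine receptor by which monocytes leave the marrow, rose from 0.0960 to 0.357 RPKM in control liver to 0.881 to 2.35 RPKM in pre-metastatic liver (log2 fold change 2.53, adjusted *p* = 7.54e-05). The largest changes were those of *Vcan*, a matrix proteoglycan of classical monocytes (3.8, adjusted *p* = 0.00170, on 0 to 12 counts in control liver), *F13a1*, a clotting factor subunit (3.10, adjusted *p* = 0.000594), and *Ifitm6* (3.03, adjusted *p* = 0.00312). The most abundant were *Fcgr4*, an IgG receptor of patrolling monocytes, at 3.13 ± 0.767 and 7.53 ± 2.70 RPKM (1.34, adjusted *p* = 0.000816), and *S100a4*, a calcium-binding protein of motile cells, at 1.11 ± 0.372 and 7.95 ± 10.1 RPKM (3.0, adjusted *p* = 0.00413). The 14 genes summed to 5.28 to 9.20 RPKM in control liver and 15.9 to 55.1 RPKM in pre-metastatic liver.

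The lipid-associated program, to which *Trem2* belongs, had 7 of 11 tested genes higher and 0 lower. *Fabp5*, a fatty acid binding protein, rose from 4.08 ± 1.39 to 136 ± 59.2 RPKM (log2 fold change 5.17, adjusted *p* = 5.28e-06), and *Spp1*, osteopontin, from 12.5 ± 1.75 to 68.4 ± 28.3 RPKM (2.58, adjusted *p* = 9.95e-05). *Itgax*, integrin CD11c, rose by 1.93 (adjusted *p* = 0.00311). *Gpnmb* (0.89, adjusted *p* = 0.307), *Mmp12* (1.42, adjusted *p* = 0.0698), *Cd9*, and *Lpl* were not called. Parenchymal liver cells can also make *Fabp5* and *Spp1*, and which cells made them was not tested.

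Of 6 tested ligands that recruit or sustain macrophages, 5 were higher and 0 lower, *Il34* (-0.70, adjusted *p* = 0.217) being the exception. *Ccl2* and *Ccl12*, both ligands of CCR2, rose by 2.36 and 3.13 (adjusted *p* = 0.00137 and 0.00135). *Ccl7*, also a ligand of CCR2, had at most 2 counts in any control liver but 8 to 63 in the pre-metastatic livers, so its fitted change has no fixed size. *Csf1*, the growth factor that keeps resident macrophages alive, rose from 2.34 ± 0.429 to 3.95 ± 0.786 RPKM without overlap (0.85, adjusted *p* = 0.000839).

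Markers of other cells were read beside these lists. Of 8 hepatocyte markers 2 were higher and 2 lower, of 6 dendritic cell markers 2 were higher, of 6 lymphocyte markers 2 were higher, with no dendritic cell or lymphocyte marker lower. Of 6 epithelial and cell division genes, *Mki67* and *Top2a*, both of dividing cells, rose by 3.22 and 3.56 (edgeR, adjusted *p* = 0.000103 and 0.000119). *Cdh1* rose by 0.97 (edgeR, adjusted *p* = 0.0319), while *Krt8*, *Krt18*, and *Epcam* were not called. These epithelial genes had lower means in tumor than in control liver, so they cannot mark these tumor cells in liver. *Krt8* was at 1.73 against 111 RPKM, *Krt18* at 6.65 against 162, *Epcam* at 0.305 against 0.544, and *Cdh1* at 0.523 against 2.11. *Mki67* was at 0.302 to 1.53 RPKM in pre-metastatic liver and 31.6 RPKM or more in every tumor. Which cells were dividing was not tested.

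**Figure D4:**
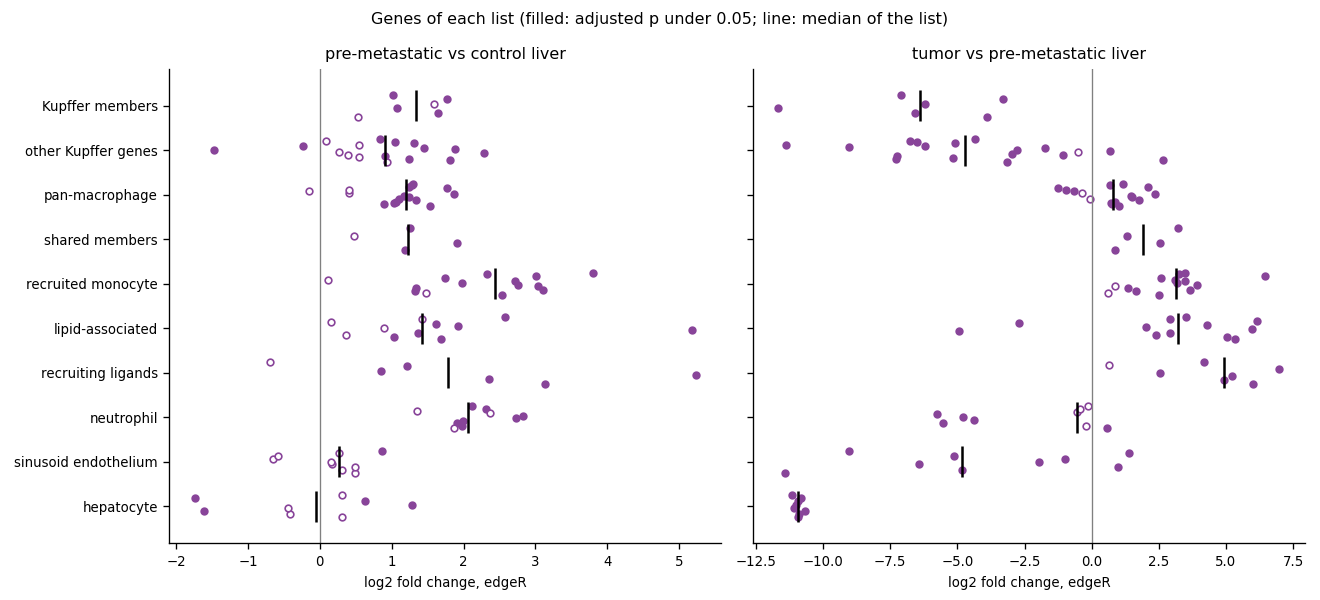
The log2 fold change by edgeR of every tested gene of each list (filled points, adjusted p under 0.05; vertical line, median of the list), for pre-metastatic against control liver on the left and primary tumor against pre-metastatic liver on the right. Resident and monocyte lists both lie mostly above 0 on the left, and on the right the Kupffer cell lists lie mostly below 0 and the monocyte, lipid-associated, and ligand lists mostly above it.

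In the primary tumor the resident and shared genes parted. Compared with pre-metastatic liver, all 6 resident genes were lower and all 4 shared genes higher (edgeR), where 43.8% of 17827 genes were called higher and 40.5% lower (7800 and 7222; limma on log2(RPKM + 1) gave 12178 and 3686). Compared with control liver, the same 6 were lower and the same 4 higher, where 44.2% of 19320 genes were called higher and 38.1% lower (8541 and 7355, or 12498 and 4121 with limma). Calls in either direction were thus common between these tissues. Every tumor lay below every pre-metastatic liver for *Clec4f*, *Vsig4*, *Marco*, and *Cd5l* (14.5% of all genes) and above for *Adgre1*, *Lyz2*, and *Trem2* (55.8%). Against control liver, *Clec4f*, *Vsig4*, and *Cd5l* lay wholly below (17.1%) and all 4 shared genes above (56.4%). The exact Wilcoxon test called 68.3% of genes higher and 20.6% lower against pre-metastatic liver, and 66.2% and 21.4% against control liver. Both comparisons share the tumors.

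*Clec4f* fell furthest. It had 0 counts in 5 of 9 tumors and 1 and 5 counts in M1 and M5, where a count of 0 is compatible with up to 3 counts. Mice M10 and M12 had 24 and 35 counts (0.141 and 0.268 RPKM), and their tumors also held the most *Alb*, at 86.4 and 173 RPKM against at most 15.0 RPKM in the other 7. The mean was 0.0502 ± 0.0938 RPKM (SD, n = 9) in tumor against 77.0 ± 27.7 RPKM in pre-metastatic and 38.3 ± 8.31 RPKM (n = 5) in control liver. The fitted log2 fold change against pre-metastatic liver was -11.66 (SE 0.717, adjusted *p* = 6.86e-12) and -14.46 without the tumors of M10 and M12, and at such counts its size depends on the fit.

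*Vsig4* was at 0 to 0.862 RPKM in tumor, median 0.500, below every liver (log2 fold change -7.09 against pre-metastatic and -6.05 against control liver, adjusted *p* = 7.00e-11 and 4.48e-08). *Marco* was at 0 to 0.436 RPKM on 0 to 54 counts, below every pre-metastatic liver but not below control mouse C1 (-6.19 and -4.60, adjusted *p* = 1.50e-06 and 0.000113). *Cd163* was at 0.119 to 3.29 RPKM, and its highest tumor, M6, lay above the lowest liver of either group (-3.88 and -3.33, adjusted *p* = 2.59e-07 and 2.14e-05).

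No tumor was without counts of *Cd5l* or *Timd4*, which had 11 to 1277 and 30 to 889 counts. *Cd5l* ranged from 0.0966 (M4) over a median of 0.752 to 10.04 RPKM in M2, followed by 3.86 RPKM in M1, and every tumor was below every liver (log2 fold change -6.59 against pre-metastatic and -4.93 against control liver, adjusted *p* = 1.99e-07 and 3.93e-05). *Timd4* ranged from 0.238 (M7) over 0.873 to 6.16 RPKM in M2, followed by 1.69 RPKM in M1. It was lower than in pre-metastatic liver by 3.31 on the log2 scale (SE 0.479, adjusted *p* = 2.48e-06), with an overlap by M2 alone. Against control liver the difference was -1.52 (SE 0.560, adjusted *p* = 0.0202), but it was not called by limma on log2(RPKM + 1) (adjusted *p* = 0.200), by the exact Wilcoxon test (adjusted *p* = 0.0675), or without control mouse C4 (adjusted *p* = 0.0530). The tumors of M1 and M2, with 1 and 0 counts of *Clec4f*, also had the most *Fabp7*, another Kupffer cell gene, at 1.78 and 4.31 RPKM, against 0.839 RPKM or less in the other tumors.

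The shared genes were all higher in tumor. *Lyz2* reached 777 (M1) to 2564 RPKM (M2), 1399.8 ± 521 RPKM on average, above every liver (log2 fold change 2.53 against pre-metastatic and 4.45 against control liver, adjusted *p* = 2.00e-08 and 5.83e-10). *Trem2* was at 17.8 (M8) to 42.7 RPKM (M12), median 28.8, where no liver exceeded 2.04 RPKM (3.23 and 4.51, adjusted *p* = 1.69e-09 and 3.62e-10). In control liver it was the lowest of the 10 genes in mean RPKM, and in tumor it came after *Lyz2* and *Mrc1*, at a level near that of *Adgre1*.

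*Adgre1* was at 17.1 (M1) to 52.4 RPKM (M2), median 23.7, also above every liver, with a log2 fold change of 0.87 against pre-metastatic liver (SE 0.274, adjusted *p* = 0.00661) and 2.08 against control liver (adjusted *p* = 5.41e-06). Among the 4 late-set mice the first difference was 0.76 and was not called (adjusted *p* = 0.117), and among the 5 early-set mice it was 0.96 (adjusted *p* = 0.0204). *Mrc1* ranged from 12.8 (M4) over 49.1 to 92.6 RPKM (M6), above every control liver and overlapping 2 pre-metastatic livers (M1 and M4) (1.31 and 1.81, adjusted *p* = 0.000665 and 0.000201). Of the 9 sinusoid endothelial markers 7 were lower and 2 higher than in pre-metastatic liver, and of 9 neutrophil markers 4 were lower and 1 higher. The part of either cell type in the levels of *Mrc1* and *Lyz2* was not tested.

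Within the early set and the late set of mice, the 6 resident genes were all lower in tumor than in pre-metastatic liver. These fits were not planned beforehand. In the early set 6870 of 17997 genes were called lower and 7244 higher. In the late set 6536 of 18471 were called lower and 7249 higher. *Cd5l* differed by -8.51 in the early and -5.77 in the late set, *Timd4* by -4.22 and -2.72, and *Cd163* by -3.43 and -4.37 (adjusted *p* at most 0.00301). Whether the sets differ was not tested. *Trem2* and *Lyz2* were higher in both sets, by 2.95 and 3.56 and by 2.44 and 2.61.

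The wider lists parted in the same way. Of 18 further Kupffer cell genes 15 were lower in tumor than in pre-metastatic liver, *Hmox1* and *Arnt2* were higher, and *Folr2* was not called (8.43 ± 3.04 and 13.4 ± 5.42 RPKM; -0.50, adjusted *p* = 0.0783), with a median of -4.73 against 0.09 for all genes tested. Some of these are also hepatocyte genes, and all 8 hepatocyte markers were lower (median -10.93). *Paqr9* fell from 89.9 ± 32.1 to 0.0722 ± 0.104 RPKM and *C6* from 50.9 ± 20.7 to 0.732 ± 0.562 RPKM (-11.39 and -7.29, adjusted *p* = 9.37e-13 and 2.61e-12). *Id3* and *Il18bp* fell by 2.79 and 1.74 (adjusted *p* = 4.21e-06 and 2.06e-06).

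Among genes common to macrophages, 11 of 16 were higher, 3 lower, and 2 not called, among the latter *Csf1r* (-0.08, adjusted *p* = 0.734). *C1qa* was at 403 ± 131 RPKM and *C1qc* at 345 ± 116 RPKM in tumor (0.75 and 0.87, adjusted *p* = 0.00225 and 0.000737). *Fcgr1* rose by 2.36 and *Aif1* by 1.02 (adjusted *p* = 2.79e-10 and 0.00232), while *Mpeg1* fell by 1.25 (adjusted *p* = 6.08e-06). In RPKM, *Csf1r* was at 20 ± 7.48 in pre-metastatic liver and 42.5 ± 14 in tumor, so that its direction depended on the scaling.

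Of the 14 monocyte genes 12 were higher in tumor than in pre-metastatic liver and 0 lower, with a median of 3.14. *S100a4* was at 1644 ± 264 RPKM, *F13a1* at 20.8 ± 24.1 RPKM, *Fcgr4* at 43.8 ± 21.1 RPKM, and *Vcan* at 2.17 ± 0.526 RPKM (log2 fold change 6.45, 3.65, 1.36, and 3.46, adjusted *p* at most 5.50e-05), whereas *Ifitm6* was not called (0.88, adjusted *p* = 0.0719). Tumor cells may also express *S100a4* and *Spp1*, and which cells made them was not tested. Of 12 lipid-associated genes 10 were higher, among them *Spp1* at 1835 ± 421 RPKM (3.52, adjusted *p* = 3.42e-10) and *Itgax* (2.04, adjusted *p* = 2.59e-06), and 2 were lower, *Lpl* (-2.72) and *Fabp5*, which was at 10.4 ± 3.12 RPKM (-4.93, adjusted *p* = 6.53e-12). Of 7 ligands 6 were higher and *Cx3cl1* was not called. *Ccl2*, *Ccl12*, and *Ccl7* were at 144 ± 66.0, 92.2 ± 22.4, and 61.7 ± 20.5 RPKM and *Csf1* at 52.4 ± 8.89 RPKM (4.91, 6.02, 5.23, and 2.54, adjusted *p* at most 1.50e-11).

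The ratio of each gene to *Adgre1* within a library depends little on how libraries are scaled, except where a gene is near 0 and the pseudocount weighs in. It was used to ask which genes moved apart from this general macrophage gene. Across the 9 pre-metastatic livers *Adgre1* followed *Clec4f* with an r of 0.967, so the ratio of *Clec4f* sets it against a gene that varied with it. Ratios are given as log2 of RPKM + 0.1 over RPKM + 0.1 of *Adgre1*, with an exact two-sided permutation test adjusted over 27 ratios. From control to pre-metastatic liver, the ratio of *Clec4f* was 3.54 ± 0.182 (SD, n = 5) and 3.50 ± 0.314 (n = 9), a difference of -0.04 that did not pass the test (exact adjusted *p* = 0.841) and ran from -0.09 to 0.04 as single libraries were left out. That of *Vsig4* was 2.13 ± 0.187 and 2.04 ± 0.32 (difference -0.09, exact adjusted *p* = 0.690).

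*Timd4* and *Cd5l* rose more than *Adgre1* in pre-metastatic liver. The ratio of *Timd4* went from -0.66 ± 0.10 to -0.03 ± 0.307 (difference 0.63, exact adjusted *p* = 0.00397), and that of *Cd5l* from 3.18 ± 0.218 to 3.71 ± 0.326 (difference 0.53, exact adjusted *p* = 0.00994). The ratios of *Cd163* and *Mrc1*, which were not called in the comparison of levels, differed by -0.60 and -0.67 (exact adjusted *p* = 0.0378 and 0.00974). *Lyz2* (difference 0.74, exact adjusted *p* = 0.0572), *Marco* (0.21, *p* = 0.795), and *Trem2* (-0.04, *p* = 0.949) did not pass the test. The call for *Cd163* was lost without any 1 of C1, C4, C5, C6, M2, M4, M5, M7, M8, or M10 (difference -0.51 to -0.65), and *Lyz2* passed without M2 (0.89, exact adjusted *p* = 0.0105).

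In tumor, every resident gene fell relative to *Adgre1*, with differences from -4.57 (*Timd4*) to -11.19 (*Clec4f*) against pre-metastatic liver, without overlap between the groups (exact adjusted *p* = 0.000139 each, from 4.11e-05, the smallest *p* that unpaired divisions of the libraries can give). Liver and tumor came from the same mice, and sign flips within the mouse gave an exact adjusted *p* of 0.00439 for each, from a smallest possible *p* of 0.00391. With a pseudocount of 0.01 the difference of *Clec4f*, at 0 counts in 5 tumors, was -13.64 and that of *Marco* -7.35 in place of -5.85, so their sizes depend on it. Both *Lyz2* (from 3.94 ± 0.686 to 5.6 ± 0.438) and *Trem2* (from -2.26 ± 1.27 to 0.05 ± 0.424) rose relative to it, with the same *p* in both tests. *Mrc1* did not move apart from *Adgre1* detectably (0.35 ± 0.444 and 0.73 ± 1.16; difference 0.38, exact adjusted *p* = 0.468). Against control liver the same 8 ratios passed the test (exact adjusted *p* = 0.000843 each), and that of *Mrc1* did not (difference -0.29, exact adjusted *p* = 0.723).

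**Figure D5:**
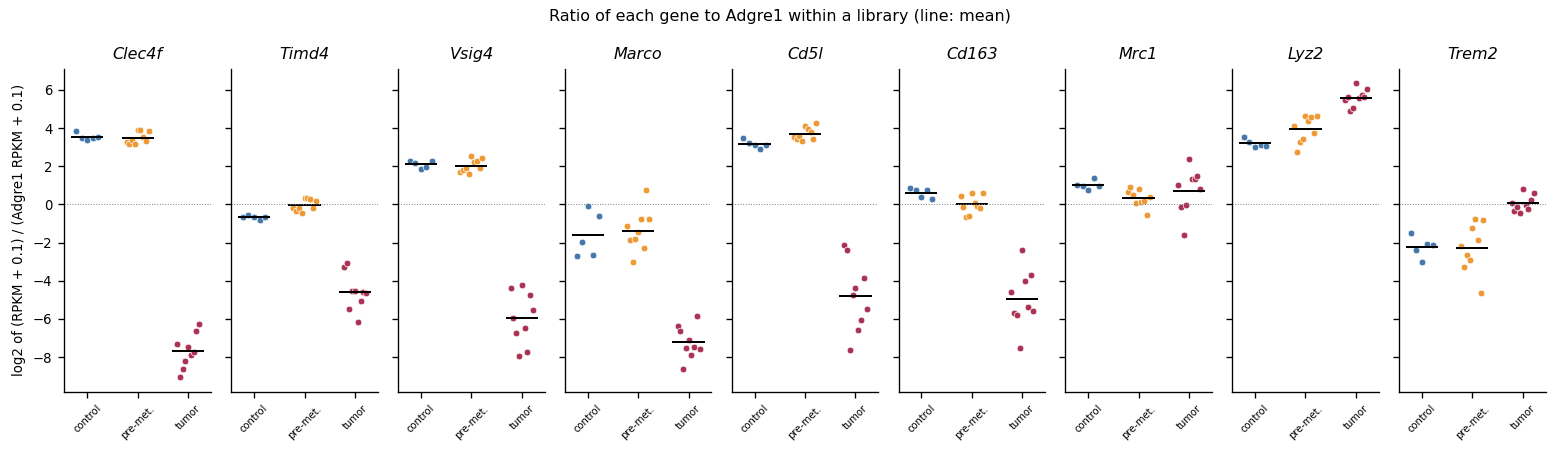
The log2 ratio of each gene to *Adgre1* within each library, with 0.1 RPKM added to both, 1 point per library, and a line at the group mean (5 control livers, 9 pre-metastatic livers, 9 primary tumors). The ratios of *Clec4f* and *Vsig4* differ by -0.04 and -0.09 between pre-metastatic and control liver, and all 6 resident genes drop in the tumors while *Lyz2* and *Trem2* rise.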

How the data were processed

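RNA-seq of 14 livers and 9 tumors was analysed. The authors deposited raw counts per gene, and RPKM made from these counts and the gene lengths, for each of 23 libraries (46 columns matched to samples by name). Mouse build mm10, HISAT2, and HTSeq 0.6.0 are named in the submitters' processing notes, and the annotation is not given in the sources used here. Counts of 2 symbols that occur on 2 lines each were summed. No 2 libraries were alike within counting noise.

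Groups were compared on counts with edgeR 4.0.16 (TMM, quasi-likelihood F test, R 4.3.3) over genes that reached 10 counts in 5 or more libraries (9 or more for tumor against pre-metastatic liver), with Benjamini-Hochberg adjustment at 0.05. Ratios (pseudocount 0.1 RPKM) and correlations used exact permutation tests in Python 3.11.15 (scipy 1.17.1, numpy 2.4.6, pandas 2.3.3; matplotlib 3.10.9 for plots). DESeq2 1.42.0, limma 3.58.1 (log2(RPKM + 1) and log2(RPKM + 0.1)), an exact Wilcoxon test, upper-quartile factors, no count filter, clock sets, a mouse block, and leaving out single libraries were alternatives. The scripts were tested on simulated data. The floor of 3 counts covers counting error only. Standard errors, which are between mice, were worked back from the log2 fold change and the F statistic of the edgeR fits. Intervals of the log2 differences were taken from them with a normal limit, which makes them somewhat narrow for so few mice.

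Liver and tumor of the same mouse number came from the same animal, and the mean correlation of their deviations over 18372 genes was 0.0714, against -0.00917 between different mice. The members and lists were chosen with earlier results of these data known. Of each list, the 3 called genes with the largest change between livers and the 2 most abundant were named, and any other named gene was chosen after its values were seen. Promoters came from RefSeq (GRCm38.p6), with a window for 9 of the 10 genes. The result of 1 gene is not reported here.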

Additional observations from a re-analysis of the deposited data

Results flagged for a closer look

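In 3 of 30 groups of libraries, 1 library stood further from the others than Dixon's 95% limit allows, where chance gives about 1 in 20, or 1.5 of 30. *Marco* in the pre-metastatic liver of M10 was at 20.5 RPKM, and the next highest liver was at 4.35 RPKM. *Timd4* in the tumor of M2 was at 6.16 RPKM, with the next tumor at 1.69 RPKM. *Cd5l* in the tumor of M2 was at 10.04 RPKM, with the next tumor at 3.86 RPKM. The tumor of M2 also had the highest *Adgre1*, *Lyz2*, and *Marco* among the tumors, at 52.4, 2564, and 0.436 RPKM.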

How the results depend on the processing

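With the mouse as a replicate block, 14929 genes were called between tumor and pre-metastatic liver, against 15022 without it, and no call among the 10 genes changed. The fitted log2 fold change of *Cd5l* moved to -7.81 and that of *Timd4* to -3.84. The number of ratios to *Adgre1* that passed the test between pre-metastatic and control liver fell from 4 to 0 among early-set livers alone. The smallest exact permutation p of these livers is 0.00794, which gives a lone ratio an adjusted value of 0.0714. Only several ratios with a low p together could have passed. There the differences of *Clec4f*, *Vsig4*, *Marco*, and *Trem2* changed sign, to 0.0481, 0.0217, -0.0342, and 0.366, and with a pseudocount of 0.01 that of *Trem2* was 0.0317. Leaving out single libraries, these differences ranged from -0.0904 to 0.0384 for *Clec4f*, -0.0570 to 0.598 for *Marco*, and -0.242 to 0.259 for *Trem2*, and the correlation of *Trem2* with *Clec4f* from -0.552 to 0.0415, the last without M10. None of these passed a test, and the cause was not tested. Of the 10 genes, 6 or 7 were called between the livers whichever library was left out, and 4285 to 5284 genes in all. *Clec4f* passed the correlation test with 4 to 7 of 9 genes. *Timd4* was not called between tumor and control liver without the tumors of M10 and M12 (adjusted *p* = 0.0530), left out after the data were seen. Genes near 0 counts (*Clec4f*, *Vsig4*, and *Marco* in tumor) have fold changes whose size the depth does not fix.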
